A study of Mus musculus with 16 samples.

Results

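A set of 10 genes whose transcripts are known to be spliced differently in myotonic dystrophy muscle was followed through their individual array probes: Ldb3, Pdlim3, Nrap, Capzb, Ttn, Tnnt3, Bin1, Spag9, Vps39 and Nfix. All probes that the platform annotation assigns to these 10 genes were taken, 24 of the 25697 on the array, and a probe was kept if its detection p-value was under 0.05 on at least 4 of the 16 arrays. That left 23 probes of all 10 genes, of 8725 genes and 12364 probes kept in all, and 8 of the 10 genes had more than 1 kept probe. Probes of a gene are numbered here by their mean signal over the arrays, with probe 1 the brightest.

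Illumina bead arrays measured total RNA of the quadriceps from adult mice of the FVB/n background, with 4 arrays in each of 4 groups. The first 3 groups were HSALR transgenic mice given antisense oligo (ASO) 445236, ASO 190401 or saline, and the fourth was wild-type (WT) mice given saline, all injected under the skin in biweekly doses over 4 weeks. All 3 HSALR groups carry the transgene. HSALR mice carry a human skeletal actin gene with a long CUG repeat, expressed in muscle fibres, and are a mouse model of the muscle side of myotonic dystrophy. From knowledge of the study rather than from the labels, both oligos were aimed at the transgene RNA. The HSALR saline and ASO 445236 arrays lay on 1 chip and the WT and ASO 190401 arrays on the other. Chip and group therefore cannot be told apart in any comparison but ASO 445236 against HSALR saline and ASO 190401 against WT. Whether each array came from its own mouse is not in the labels, and the p-values rest on the array-to-array spread alone, which may be technical.

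In myotonic dystrophy, RNA with expanded CUG repeats gathers in the nucleus and binds muscleblind-like (MBNL) proteins, which are regulators of alternative splicing. With MBNL sequestered, many muscle transcripts take up exon patterns typical of immature muscle. Several of these transcripts encode proteins of the Z-disc, the structure that anchors thin filaments at the ends of each sarcomere, and of the membrane folds that carry the action potential into the fibre. A bead array probe reads a short stretch of a transcript near its own position, so probes of a gene may change unequally, and a probe near background or near the top of the signal range can also differ from its neighbours for that reason alone. Probe sequences and exon positions were not used here, so whether a probe lies in a regulated exon was not determined.

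Values are log2 normalized intensities unless stated. A probe is called at a Benjamini-Hochberg adjusted p under 0.05 over the 12364 probes in limma, and ± gives the standard error of a log2 difference unless marked SD. The 16 arrays had between 10835 and 11700 probes above background, and their number limits the precision. Within groups, arrays correlated with each other at 0.9848 to 0.9922 across probes.

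In HSALR saline muscle, against WT saline, 9 of the 23 member probes rose and 3 fell. Over all 12364 probes 13.1% rose and 12.7% fell, 25.9% in all. The probes that rose belonged to Bin1, Nrap, Pdlim3, Ttn and Spag9, and those that fell to Ldb3 and Tnnt3. The median difference of the member probes was 0.17, against -0.02 over all probes, and their median size was 0.26, against 0.23 over all. Against HSALR saline, 2 member probes rose and 5 fell under ASO 445236, where 6.09% of all probes rose and 6.01% fell, 12.1% in all. Likewise 1 rose and 5 fell under ASO 190401, where 7.13% of all probes rose and 6.75% fell, 13.9% in all. With median scaling in place of quantile normalization the split was 5 higher and 5 lower under ASO 445236 and 6 higher and 5 lower under ASO 190401, so the balance of rises and falls depends on the scaling. Each of these counts holds Bin1 probe 3, which was kept through the HSALR saline group alone and had to differ. Among the 18 member probes detected on all 16 arrays, 9 rose and 3 fell in HSALR saline against WT. Of these 18, 2 rose and 4 fell under ASO 445236, and 1 rose and 4 fell under ASO 190401. Over all probes detected on all 16 arrays, 1415 rose and 1460 fell in HSALR saline against WT. Against HSALR saline, 684 rose and 654 fell under ASO 445236, and 853 rose and 748 fell under ASO 190401. The share of such probes called was not worked out, so nothing is read from the counts among the 18. The 2 oligo comparisons share the HSALR saline arrays with each other and with the comparison against WT.

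**Figure D1:**
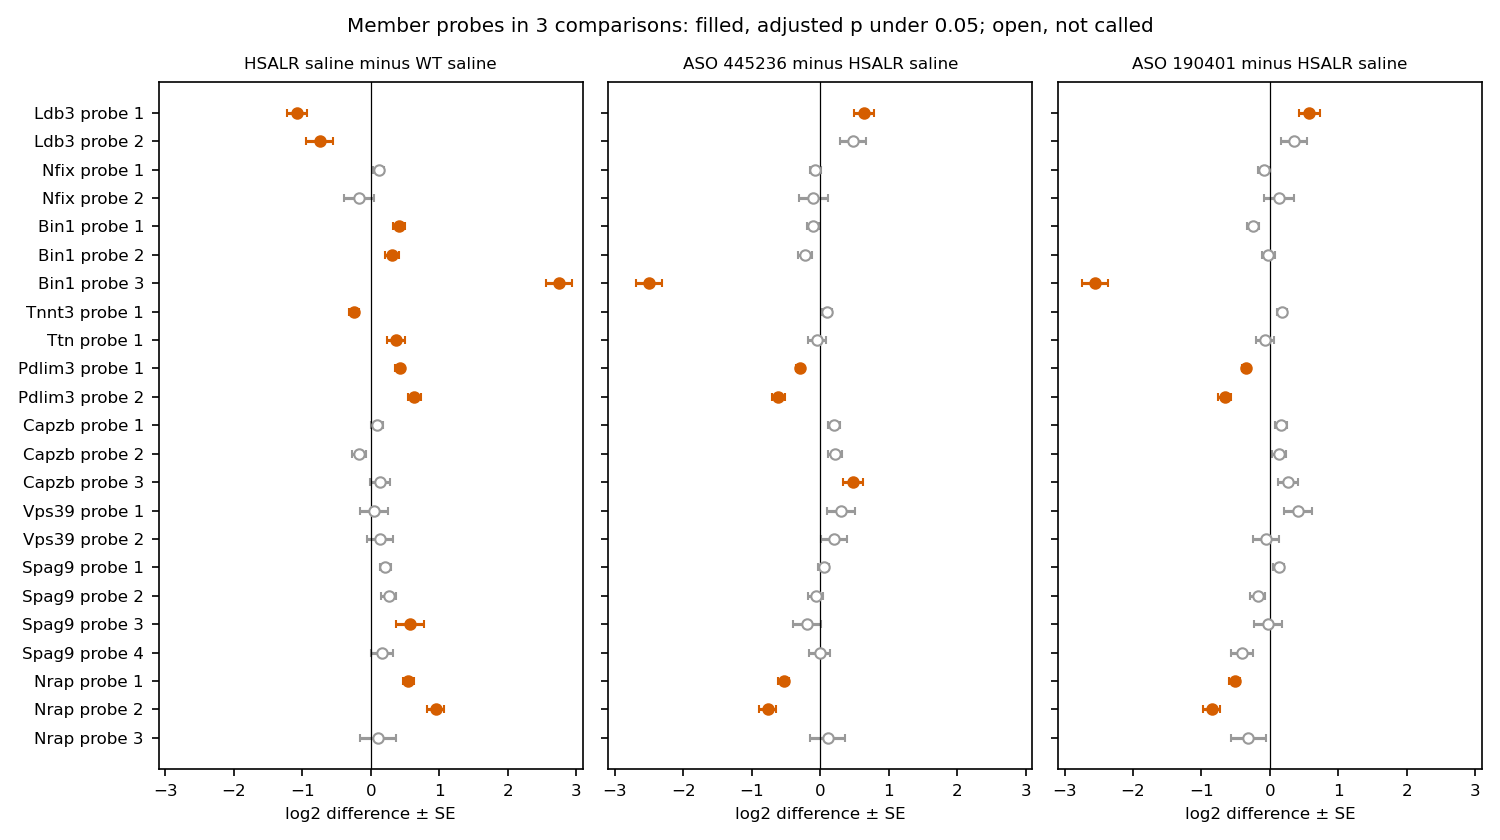
Differences of the 23 member probes in 3 comparisons (horizontal axis, log2 difference ± SE, n = 4 arrays per group), 1 row per probe. Filled points passed the adjusted p threshold of 0.05. Bin1 probe 3 lies at 2.75 in HSALR saline minus WT and at -2.50 and -2.55 in the oligo comparisons, and the probes of Nfix and Vps39 are open in all 3.

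Bin1 encodes amphiphysin 2, a protein that bends membranes and shapes the transverse tubules of muscle fibres. Its 3 probes are annotated to the same RefSeq transcript, and 1 of them, probe 3 (ILMN_2701365), was above background on all 4 HSALR saline arrays and on 0 of the other 12 arrays. Probe 3 read 4.71, 5.04, 5.36 and 4.94 under ASO 445236, 4.83, 5.08, 5.15 and 4.79 under ASO 190401, 7.06, 8.04, 7.31 and 7.65 in HSALR saline and 4.72, 4.83, 4.68 and 4.83 in WT. Every HSALR saline array lay above every other array, with no overlap. As deposited, before any correction made here, the same probe had a mean intensity of 10.2 ± 11.6 under ASO 445236, 10.2 ± 9.502 under ASO 190401, 139.3 ± 48.3 in HSALR saline and -0.075 ± 4.48 in WT (SD, n = 4 each). In the authors' deposited processed matrix its means were 16.6 ± 11.48, 16.8 ± 8.32, 182.2 ± 56.8 and 7.20 ± 4.41 in the same order of groups (SD, n = 4 each).

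Bin1 probe 3 was at least 4.42-fold higher in HSALR saline than in WT (limma adjusted p = 3.994e-09). It was at least 4.52-fold lower under ASO 445236 than in HSALR saline (adjusted p = 5.49e-08) and at least 4.52-fold lower under ASO 190401 than in HSALR saline (adjusted p = 9.017e-08). These bounds set the HSALR saline mean against, for each array of the other group, the higher of the probe's own value and the lowest signal among probes above background. They hold for that offset only and are set on group means, without an interval. The probe passed the detection filter through the HSALR saline group alone, so a probe kept in this way had to differ between groups, and its call is not evidence beyond its values. Against WT, probe 3 differed by 0.25 under ASO 445236 (95% interval -0.15 to 0.65, adjusted p = 0.4492) and by 0.20 under ASO 190401 (95% interval -0.20 to 0.60, adjusted p = 0.5714), with both groups of each comparison at background. The fitted difference depends on the processing. For HSALR saline minus WT it was 1.83 with an offset of 50 added before the log, 3.79 with an offset of 1 and 4.90 with the authors' processed values. Against HSALR saline, the smallest change over the alternatives was -1.71 under ASO 445236 and -1.74 under ASO 190401. The 1.83 and these 2 values are smaller than the bounds above.

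**Figure D2:**
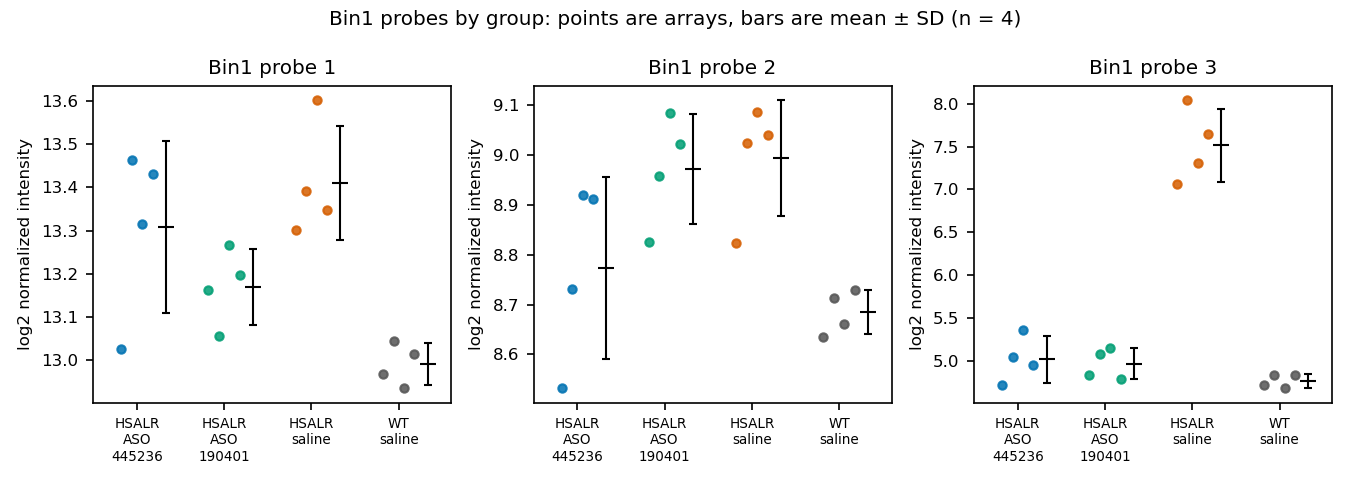
The 3 Bin1 probes by group (vertical axes, log2 normalized intensity, each on its own scale). Points are arrays and bars are mean ± SD (n = 4). The HSALR saline arrays lie between 7.06 and 8.04 on probe 3, while no array of another group exceeds 5.36, and probes 1 and 2 vary within 1 unit over all 16 arrays.

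The other Bin1 probes changed far less. Probe 1 (ILMN_2946466) read 13.03, 13.46, 13.31 and 13.43 under ASO 445236, 13.16, 13.05, 13.27 and 13.20 under ASO 190401, 13.30, 13.39, 13.60 and 13.35 in HSALR saline and 12.97, 13.04, 12.94 and 13.02 in WT. It rose in HSALR saline against WT by 0.42 ± 0.09 (adjusted p = 0.001429), and the HSALR saline arrays all lay above the WT arrays. Probe 2 (ILMN_2628339) averaged 8.77 ± 0.18, 8.97 ± 0.11, 8.99 ± 0.12 and 8.69 ± 0.04 in the same order of groups (SD, n = 4 each) and rose in HSALR saline against WT by 0.31 ± 0.10 (adjusted p = 0.02744). The call of probe 2 was lost in 7 of 25 alternatives, among them without any one of HSALR saline replicates 2, 3 and 4 and WT replicates 1 and 3 (0.28 to 0.30, adjusted p = 0.05072 to 0.07909). Neither probe 1 nor probe 2 passed the test under either oligo against HSALR saline, at -0.10 and -0.22 under ASO 445236 and -0.24 and -0.02 under ASO 190401. Against WT, probe 1 was higher under ASO 445236 by 0.32 ± 0.09 (adjusted p = 0.02617), which was lost without any one of ASO 445236 replicates 2, 3 and 4 and WT replicate 3 (0.27 to 0.32, adjusted p = 0.06296 to 0.08247).

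To compare the probes of a gene directly, the difference between 2 probes was taken within each array and tested across groups, for all 3877 pairs of kept probes in 2188 genes, always the brighter probe minus the dimmer. Between HSALR saline and WT, 4 of the 19 member pairs were called, in 2 of 8 genes (Bin1 and Nrap), where 8.31% of all pairs and 10.4% of all genes with pairs were called. Of the 19 pairs, 2 were called under ASO 445236 against HSALR saline, both of Bin1, where 2.17% of all pairs and 2.7% of genes were. Under ASO 190401, against HSALR saline, 3 pairs of Bin1 and Nrap were called, where 3.17% of all pairs and 3.93% of genes were. Of these called pairs, 2 in each comparison use Bin1 probe 3, which was kept through the HSALR saline group alone and had to differ. With probes detected on all 16 arrays, the called pairs numbered 2, 0 and 0, so nothing is read from the counts against these shares. The median size of a member pair's change in HSALR saline minus WT was 0.30, against 0.19 over all pairs.

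Within each array, Bin1 probe 1 minus probe 3 was 8.32, 8.42, 7.95 and 8.49 under ASO 445236, 8.34, 7.97, 8.12 and 8.41 under ASO 190401, 6.24, 5.35, 6.29 and 5.70 in HSALR saline and 8.25, 8.22, 8.26 and 8.19 in WT. The HSALR saline arrays again stood below all 12 others. The difference was -2.33 ± 0.17 in HSALR saline minus WT (adjusted p = 5.027e-09), 2.40 ± 0.17 under ASO 445236 (adjusted p = 3.032e-08) and 2.31 ± 0.17 under ASO 190401 (adjusted p = 2.944e-08). Probe 3 was kept through the HSALR saline group alone, so this pair had to differ, and its p-values are not evidence beyond the values. The pair of probes 1 and 2 did not pass the test in any comparison, at 0.11 in HSALR saline minus WT. Probe 3 lay at background outside the HSALR saline group, so the size of these pair values depends on the processing there, from -4.48 with the authors' processed values to -1.42 with an offset of 50 for HSALR saline minus WT.

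**Figure D3:**
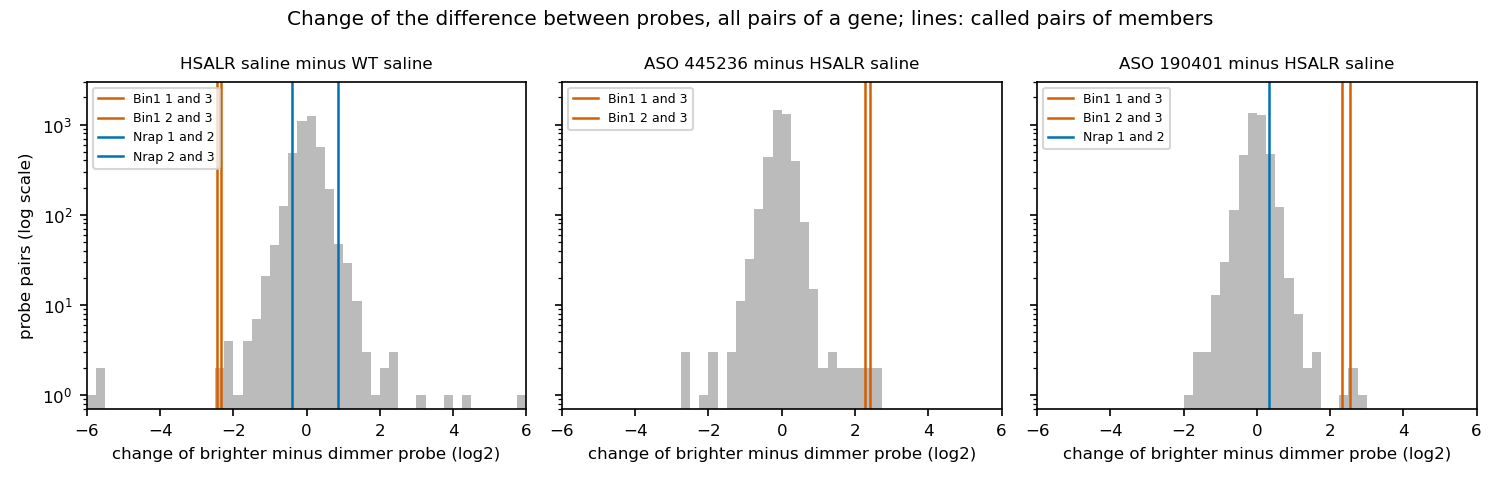
Change between groups of the within-array difference of 2 probes (horizontal axis, log2, brighter minus dimmer probe) for all 3877 probe pairs, in 3 comparisons. The vertical axis counts pairs on a log scale, and lines mark the called pairs of member genes. The Bin1 lines lie at -2.33 and -2.45, at 2.40 and 2.28, and at 2.31 and 2.53, outside the bulk of the pairs, while the Nrap lines lie within it. The Bin1 lines all use probe 3, which was kept through the HSALR saline group alone, and their positions depend on the processing.

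The detection pattern through which Bin1 probe 3 was kept was counted over the array. Of 25697 probes, 13 were above background on all 4 HSALR saline arrays and on 0 of the other 12, against 2 probes for ASO 445236, 1 for ASO 190401 and 1 for WT. Among these 13, 3 belonged to genes with another probe above background on all 16 arrays, namely Bin1, Fbxl5 and Inpp5f, which were named after their values were seen. Fbxl5 encodes an F-box protein that controls iron handling, and Inpp5f a phosphoinositide phosphatase. The probes of these 3 genes were picked by this detection pattern, which is also what kept Bin1 probe 3. The counts describe the pattern only, and no test of it is given.

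Nrap encodes a nebulin-related protein that anchors actin filaments at the junctions of muscle cells and takes part in myofibril assembly. Its probe 1 read 13.33, 13.43, 13.39 and 13.43 under ASO 445236, 13.41, 13.47, 13.45 and 13.33 under ASO 190401, 13.91, 13.90, 14.04 and 13.87 in HSALR saline and 13.44, 13.18, 13.24 and 13.66 in WT. Probe 2 read 11.22, 11.50, 11.55 and 11.25 under ASO 445236, 11.19, 11.34, 11.48 and 11.18 under ASO 190401, 12.07, 12.20, 12.11 and 12.21 in HSALR saline and 11.32, 10.95, 10.90 and 11.61 in WT. On both probes every HSALR saline array lay above all 12 others.

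Against WT, Nrap probe 1 rose in HSALR saline by 0.55 ± 0.08 (adjusted p = 6.784e-05) and probe 2 by 0.95 ± 0.13 (adjusted p = 1.834e-05). With ASO 445236, against HSALR saline, probe 1 fell by 0.54 on the log2 scale (SE 0.08, adjusted p = 0.0001905) and probe 2 by 0.77 (SE 0.13, adjusted p = 0.0003796). Under ASO 190401 they fell by 0.52 (SE 0.08, adjusted p = 0.0003062) and 0.85 (SE 0.13, adjusted p = 0.0001588). Neither passed the test between an oligo group and WT, where the 4 differences ran from 0.01 to 0.18. Probe 3 averaged 6.82 ± 0.68 under ASO 445236, 6.40 ± 0.39 under ASO 190401, 6.71 ± 0.13 in HSALR saline and 6.61 ± 0.31 in WT (SD, n = 4 each), with all groups overlapping. It differed by 0.10 ± 0.26 between HSALR saline and WT (95% interval -0.45 to 0.65).

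The unequal change of the Nrap probes passed the test between HSALR saline and WT. Probe 1 minus probe 2 was 1.84, 1.70, 1.93 and 1.66 in HSALR saline and 2.12, 2.23, 2.34 and 2.05 in WT, without overlap, a change of -0.40 ± 0.09 (adjusted p = 0.006798) that was called in all 25 refits of the same test. limma's diffSplice, which sets each probe against the other probes of its gene, called no Nrap probe in this comparison (adjusted p = 0.9799 for probe 1, 0.1343 for probe 2 and 0.1184 for probe 3). Probe 2 minus probe 3 changed by 0.85 ± 0.23 (adjusted p = 0.02671), which was lost in 10 of 25 alternatives, among them without any one of HSALR saline replicates 1, 3 and 4 and WT replicates 2, 3 and 4 (0.79 to 0.86, adjusted p = 0.05608 to 0.07228). Under ASO 190401, against HSALR saline, probe 1 minus probe 2 changed by 0.34 ± 0.09 (adjusted p = 0.04779). That call was lost in 17 of 25 alternatives, 10 of which left out 1 array: replicates 1 and 2 of ASO 445236, 1, 2 and 4 of ASO 190401, 1, 2 and 4 of HSALR saline, and 1 and 2 of WT, each in turn (0.29 to 0.36, adjusted p = 0.05029 to 0.1577). diffSplice called no Nrap probe there either (adjusted p = 0.5537 to 0.9691). Under ASO 445236 it changed by 0.23 ± 0.09 (adjusted p = 0.2489). The platform annotation gives probe 1 to one RefSeq transcript of Nrap and probes 2 and 3 to another. Probe 1 was the brightest of the 3 and changed less than probe 2, and the part of signal strength in this was not tested.

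Pdlim3 encodes ALP, an actinin-associated LIM protein of the Z-disc. Probe 1 read 14.32, 14.50, 14.43 and 14.48 under ASO 445236, 14.48, 14.36, 14.37 and 14.32 under ASO 190401, 14.67, 14.79, 14.70 and 14.75 in HSALR saline and 14.26, 14.46, 14.23 and 14.28 in WT. Probe 2 read 12.63, 13.06, 13.19 and 12.96 under ASO 445236, 12.92, 12.95, 12.86 and 12.92 under ASO 190401, 13.46, 13.62, 13.56 and 13.66 in HSALR saline and 13.08, 13.01, 12.70 and 12.95 in WT. As for Nrap, the HSALR saline arrays stood above all others on both probes. The rises in HSALR saline over WT were 0.42 ± 0.06 (adjusted p = 7.017e-05) on probe 1 and 0.64 ± 0.10 (adjusted p = 9.431e-05) on probe 2. They fell under ASO 445236, against HSALR saline, by 0.30 (SE 0.06, adjusted p = 0.003742) and 0.61 (SE 0.10, adjusted p = 0.0003027), and under ASO 190401 by 0.35 (SE 0.06, adjusted p = 0.001022) and 0.66 (SE 0.10, adjusted p = 0.0001656). Against WT, the oligo groups differed by -0.02 to 0.13 on the 2 probes, with no call. Probe 1 minus probe 2 did not pass the test, at -0.22 ± 0.09 in HSALR saline minus WT (adjusted p = 0.1456), 0.32 ± 0.09 under ASO 445236 (adjusted p = 0.06677) and 0.31 ± 0.09 under ASO 190401 (adjusted p = 0.05533).

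Ldb3 encodes ZASP, also called Cypher, a Z-disc protein with a PDZ domain that binds actinin. Its probes are annotated to different RefSeq transcripts. Probe 1 read 12.47, 12.21, 12.23 and 12.07 under ASO 445236, 12.28, 12.20, 11.58 and 12.67 under ASO 190401, 11.57, 11.72, 11.57 and 11.56 in HSALR saline and 12.59, 12.84, 12.70 and 12.59 in WT. The HSALR saline and WT arrays did not overlap, and 1 ASO 190401 array lay among the HSALR saline arrays and another among the WT arrays. In HSALR saline, against WT, probe 1 fell by 1.07 on the log2 scale (SE 0.15, adjusted p = 3.348e-05) and probe 2 by 0.75 (SE 0.20, adjusted p = 0.008121).

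Against HSALR saline, Ldb3 probe 1 under ASO 445236 rose by 0.64 ± 0.15 (adjusted p = 0.007452), and probe 2 differed by 0.48 ± 0.20 (adjusted p = 0.1222). Under ASO 190401 probe 1 rose by 0.58 ± 0.15 (adjusted p = 0.01428), which was lost without ASO 190401 replicate 4 (0.41, adjusted p = 0.0538), and probe 2 differed by 0.35 ± 0.20 (adjusted p = 0.2534). Against WT, probe 1 was lower under ASO 190401, at -0.50 ± 0.15 (adjusted p = 0.0429), and was at -0.43 ± 0.15 under ASO 445236 (adjusted p = 0.07286). The call under ASO 190401 was lost in 16 of 25 alternatives, 12 of which left out 1 array: any HSALR saline array, replicates 2 and 3 of ASO 445236, 1, 2 and 3 of ASO 190401, and 2, 3 and 4 of WT, each in turn (-0.53 to -0.30, adjusted p = 0.05068 to 0.1147). The difference between the probes of Ldb3 did not pass the test in any comparison. Probe 1 minus probe 2 was 4.59, 5.52, 4.69 and 4.93 in HSALR saline and 5.08, 5.09, 5.31 and 5.57 in WT, with overlap.

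**Figure D4:**
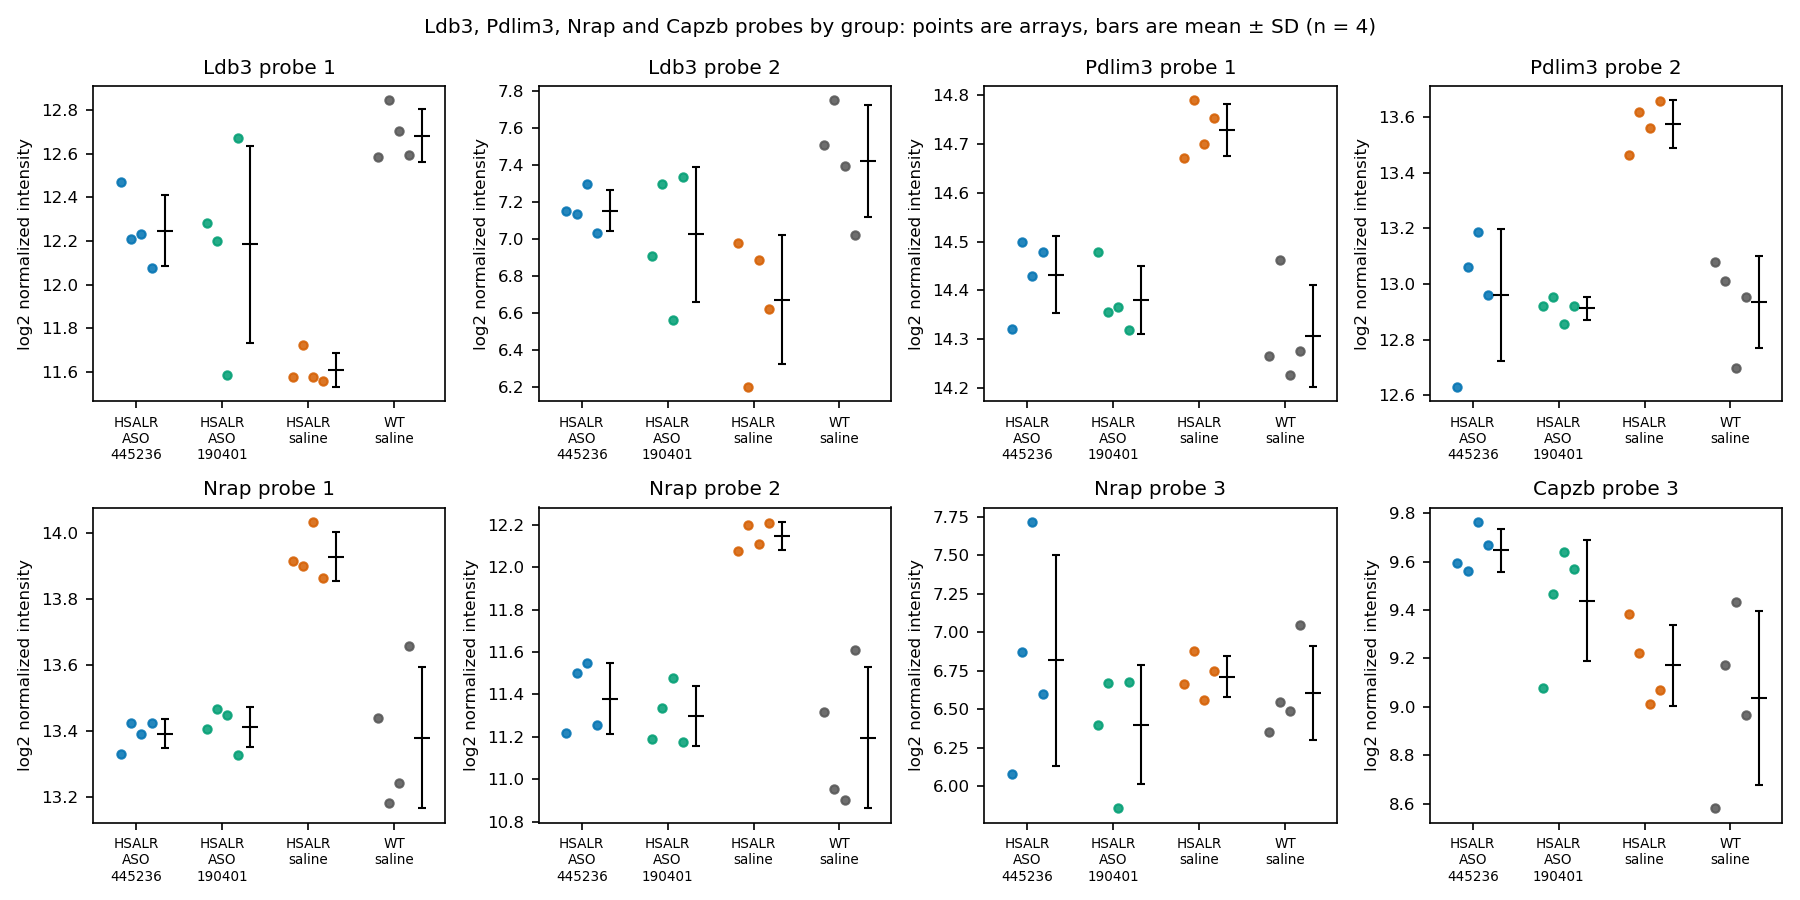
Probes of Ldb3, Pdlim3, Nrap and Capzb by group (vertical axes, log2 normalized intensity, each on its own scale). Points are arrays and bars are mean ± SD (n = 4). The HSALR saline arrays stand apart below WT on Ldb3 probe 1 and above the other 12 arrays on the Pdlim3 probes and Nrap probes 1 and 2, and all groups overlap on Nrap probe 3.

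The promoters of these 3 genes are shown because both probes of Pdlim3 and probes 1 and 2 of Nrap rose in HSALR saline against WT and both probes of Ldb3 fell, while Nrap probe 3 was not called and Ldb3 probe 2 was not called under either oligo. The choice was made after the values were seen. The sequences are RefSeq's on GRCm38.p6, 300 bases around the gene's start, most of them before it, printed 5′ to 3′ along the gene's strand. Capitals mark the E-box letters CANNTG, which myogenic factors can bind, in Pdlim3 and Nrap, and a CArG box, the motif of serum response factor, in Ldb3.
Ldb3, chr14:34588632-34588931, minus strand: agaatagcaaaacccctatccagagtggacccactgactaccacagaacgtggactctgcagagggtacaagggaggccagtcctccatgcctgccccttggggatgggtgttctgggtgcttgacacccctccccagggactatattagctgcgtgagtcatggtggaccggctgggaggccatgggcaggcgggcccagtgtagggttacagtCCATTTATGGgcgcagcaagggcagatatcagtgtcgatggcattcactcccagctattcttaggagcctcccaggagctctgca
Pdlim3, chr8:45885237-45885536, plus strand: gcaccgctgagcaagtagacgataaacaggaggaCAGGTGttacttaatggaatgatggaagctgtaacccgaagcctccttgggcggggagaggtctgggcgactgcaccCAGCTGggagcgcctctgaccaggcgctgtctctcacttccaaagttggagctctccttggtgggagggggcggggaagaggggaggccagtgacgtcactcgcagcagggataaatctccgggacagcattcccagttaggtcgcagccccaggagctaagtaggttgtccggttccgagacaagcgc
Nrap, chr19:56389989-56390288, minus strand: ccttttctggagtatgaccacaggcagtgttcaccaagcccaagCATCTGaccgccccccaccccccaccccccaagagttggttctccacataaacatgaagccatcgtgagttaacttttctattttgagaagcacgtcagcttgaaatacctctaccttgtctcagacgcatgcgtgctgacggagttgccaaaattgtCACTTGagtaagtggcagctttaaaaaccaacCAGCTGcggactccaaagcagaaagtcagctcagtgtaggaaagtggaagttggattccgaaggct
The Pdlim3 window held 2 E-boxes, starting at positions -216 and -139 from the gene's start, and the Nrap window held 3, at -206, -48 and -16, while the Ldb3 window held 0. Of 32851 mouse promoters of this length, 72.3% held an E-box, with a median of 1. The Ldb3 window held 1 CArG box, starting at position -35, a motif found in 1.63% of all promoters, and the Pdlim3 and Nrap windows held 0. The letters TATAAA, found in 13.6% of promoters, were in 0 of the 3 windows. Motifs were searched on both strands, Ldb3 has 2 starts in the table, of which 1 is shown, and a match is a description of the letters only.

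Ttn encodes titin, the giant protein that spans from the Z-disc to the middle of the sarcomere, and Tnnt3 encodes fast skeletal troponin T, which ties the troponin complex to tropomyosin. Each had 1 probe, so no comparison within the gene was possible. The Ttn probe read 15.11, 14.98, 15.12 and 15.20 in HSALR saline and 15.01, 14.28, 14.51 and 15.14 in WT, with overlap, and rose by 0.37 ± 0.13 (adjusted p = 0.04864). That call was lost in 18 of 25 alternatives, 13 of which left out 1 array, which was any one but ASO 445236 replicate 1, WT replicate 1 and WT replicate 4 (0.22 to 0.41, adjusted p = 0.05166 to 0.185). The Tnnt3 probe read 14.70, 14.64, 14.69 and 14.70 in HSALR saline and 15.00, 14.94, 14.81 and 14.94 in WT, without overlap, and fell by 0.24 (SE 0.07, adjusted p = 0.02244). Its call was lost in 4 of 25 alternatives, among them without HSALR saline replicate 2 or WT replicate 1 (-0.22 and -0.21, adjusted p = 0.05449 and 0.05884). Under the oligos, against HSALR saline, Ttn differed by -0.04 and -0.07 and Tnnt3 by 0.10 and 0.18, with no call.

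Capzb encodes the beta subunit of the protein that caps the barbed ends of actin filaments, at the Z-disc in muscle. Its probes 1 and 3 are annotated to one RefSeq transcript and probe 2 to another. None passed the test between HSALR saline and WT, where probes 1, 2 and 3 differed by 0.09, -0.17 and 0.13. Probe 3 read 9.59, 9.56, 9.76 and 9.67 under ASO 445236, 9.08, 9.47, 9.64 and 9.57 under ASO 190401, 9.38, 9.22, 9.01 and 9.07 in HSALR saline and 8.58, 9.17, 9.43 and 8.97 in WT, and the ASO 445236 arrays lay above both saline groups. Under ASO 445236 it rose against HSALR saline by 0.47 ± 0.15 (adjusted p = 0.04443), a call lost in 13 of 25 alternatives, 10 of which left out 1 array: any ASO 445236 array, replicates 2, 3 and 4 of HSALR saline, 2 and 4 of ASO 190401, and 4 of WT, each in turn (0.42 to 0.50, adjusted p = 0.05167 to 0.1265).

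Between ASO 445236 and WT, 4 of the 23 member probes were higher and 0 lower, where 5.27% of all probes were higher and 4.45% lower, 9.72% in all. Besides Bin1 probe 1, these were Capzb probe 3 at 0.61 ± 0.15 (adjusted p = 0.01475), Capzb probe 1 at 0.28 ± 0.09 (adjusted p = 0.04428) and Spag9 probe 1 at 0.27 ± 0.08 (adjusted p = 0.04096). The count fell to 0 without ASO 445236 replicate 3, 1 without its replicate 2 and 2 without its replicate 4, WT replicate 2 or WT replicate 3. Capzb probe 3 lost its call without ASO 445236 replicate 3 (0.57, adjusted p = 0.05241). Capzb probe 1 lost its call in 14 of 25 alternatives, 11 of which left out 1 array: replicates 1, 2 and 3 of ASO 445236, any HSALR saline array, 4 of ASO 190401, and 1, 2 and 4 of WT, each in turn (0.23 to 0.28, adjusted p = 0.05058 to 0.1207). The pair of Capzb probes 2 and 3 was the 1 called pair of 19, at -0.55 ± 0.13 (adjusted p = 0.02338), where 2.79% of all pairs and 3.79% of genes were called. Probe 2 minus probe 3 was 1.44, 1.28, 1.36 and 1.28 under ASO 445236 and 2.13, 1.80, 1.81 and 1.85 in WT, without overlap. It lost its call without ASO 445236 replicate 2, 3 or 4 or WT replicate 1 (-0.56 to -0.48, adjusted p = 0.0576 to 0.08286), and diffSplice called no Capzb probe (adjusted p = 0.1891 to 0.9563).

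Between ASO 190401 and WT, 1 member probe was higher and 1 lower, where 4.32% of all probes were higher and 4.81% lower, 9.13% in all. These were Spag9 probe 1, higher at 0.35 ± 0.08 (adjusted p = 0.009989), and Ldb3 probe 1, which was lower. The count was 1 without any HSALR saline array, ASO 445236 replicate 2 or 3, ASO 190401 replicate 2 or WT replicate 2. With median scaling 8 member probes were higher and 0 lower, where 2207 of all probes were higher and 364 lower. Of the 19 pairs 0 passed limma's test, with 6 at an unadjusted p under 0.05 and 0 probes called by diffSplice, where 0.825% of all pairs and 1.01% of genes were called. The count was 1 without ASO 190401 replicate 1 or WT replicate 1. The same Capzb pair stood at -0.43 ± 0.13 (adjusted p = 0.1166). Between ASO 445236 and ASO 190401, limma called 0 of 23 probes, with 1 at an unadjusted p under 0.05, where 1.61% of all probes were higher and 0.922% lower, 2.53% in all. It called 0 of 19 pairs, with 3 at an unadjusted p under 0.05 and 0 probes by diffSplice, where 0.413% of all pairs and 0.503% of genes were called. The largest difference between the oligos on a member probe that lay above background on all 16 arrays was that of Nrap probe 3, at 0.42 (95% interval -0.13 to 0.97).

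**Figure D5:**
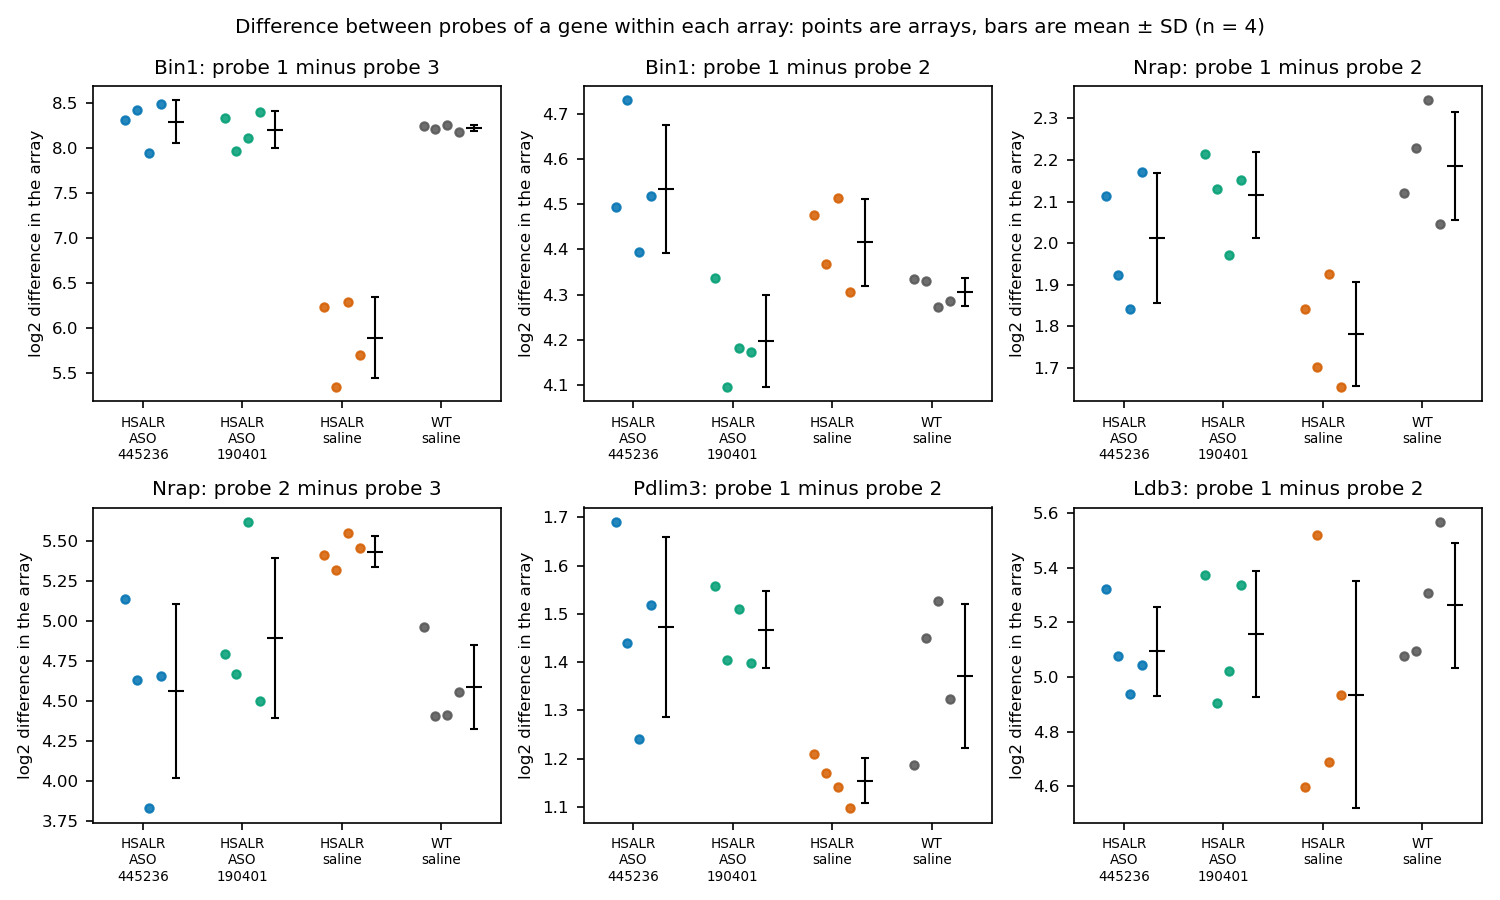
Difference between 2 probes of a gene within each array (vertical axes, log2, each on its own scale), by group. Points are arrays and bars are mean ± SD (n = 4). Bin1 probe 1 minus probe 3 lies between 5.35 and 6.29 in HSALR saline and at 7.95 or above elsewhere, Nrap probe 1 minus probe 2 is lower in HSALR saline than in WT without overlap, and Bin1 probe 1 minus probe 2 shows no such step.

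Spag9 encodes JIP4, a scaffold for kinases and motor proteins, Vps39 a subunit of the complex that tethers vesicles to lysosomes, and Nfix a nuclear factor I transcription factor that drives the fetal muscle program. Spag9 had 5 probes, of which 4 were kept. Probe 3 of Spag9 rose in HSALR saline against WT by 0.57 ± 0.20 (adjusted p = 0.04579), at 5.84, 6.48, 6.49 and 6.37 in HSALR saline and 5.91, 5.38, 5.68 and 5.93 in WT, with overlap. The call was lost in 13 of 25 alternatives, 9 of which left out 1 array: replicates 2 and 4 of ASO 445236, 1 and 2 of ASO 190401, 2, 3 and 4 of HSALR saline, and 2 and 3 of WT, each in turn (0.45 to 0.57, adjusted p = 0.0509 to 0.1403). Probe 1 of Spag9 read 10.80, 11.04, 10.93 and 10.84 under ASO 445236, 10.96, 10.92, 11.07 and 10.98 under ASO 190401, 10.70, 10.76, 10.95 and 10.98 in HSALR saline and 10.69, 10.49, 10.65 and 10.70 in WT, and both oligo groups lay above the WT arrays. Against WT it lost its call under ASO 445236 in 11 of 25 alternatives, 8 of which left out 1 array: replicates 2, 3 and 4 of ASO 445236, 2 and 4 of ASO 190401, and 2, 3 and 4 of WT, each in turn (0.22 to 0.29, adjusted p = 0.05108 to 0.1188). In HSALR saline minus WT, Spag9 probe 1 differed by 0.21 (adjusted p = 0.05675), probe 2 by 0.26 (adjusted p = 0.08748) and probe 4 by 0.17 (adjusted p = 0.4814). No pair of Spag9 probes was called.

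Nfix and Vps39 had no called probe and no called pair in any of the 6 comparisons. Nfix probe 1 averaged 12.80 ± 0.12 under ASO 445236, 12.79 ± 0.15 under ASO 190401, 12.87 ± 0.09 in HSALR saline and 12.76 ± 0.14 in WT (SD, n = 4 each), and its probe 2 was above background on 7 of 16 arrays. The difference of Nfix probe 1 between HSALR saline and WT was 0.12 (95% interval -0.06 to 0.29). Both Vps39 probes were above background on 12 of 16 arrays, with values between 5.10 and 6.37, near the limit of detection.

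Other transcripts known to depend on MBNL proteins were read in the same way, from a list of 25 genes of which 17 were measured, each by its brightest probe. Between HSALR saline and WT 3 rose and 4 fell, where 25.9% of all probes were called, with a median of 0.04 against -0.02 over all probes. For this list and the 3 that follow, the shares of all probes called were 12.1% under ASO 445236 and 13.9% under ASO 190401 against HSALR saline, 9.72% and 9.13% against WT, and 2.53% between the oligos. Camk2d, the delta form of calmodulin-dependent kinase II, rose by 2.01 ± 0.19 (adjusted p = 3.803e-07), and Camk2b, the beta form, rose by 0.45 ± 0.13 (adjusted p = 0.01194). Ryr1, the calcium release channel of skeletal muscle, rose by 0.42 ± 0.10 (adjusted p = 0.002809) on its brightest probe, while its other 3 probes differed by 0.03, 0.12 and -0.07, with no call (adjusted p = 0.8526, 0.4725 and 0.909). Atp2a1, the calcium pump of fast fibres, was lower at -0.23 ± 0.07 (adjusted p = 0.01468). For ASO 445236 against HSALR saline, 1 rose and 2 fell, with a median of 0.12 against 0.01 over all. Camk2d was among those that fell, by 1.09 (SE 0.19, adjusted p = 0.0008111). Under ASO 190401, 3 rose and 1 fell, with a median of 0.14 against 0.02 over all, and the 1 that fell was Camk2d, by 1.38 (SE 0.19, adjusted p = 0.0001016). Against WT, 2 rose and 1 fell under ASO 445236 and 2 rose and 0 fell under ASO 190401. Camk2d was among those higher, by 0.92 ± 0.19 under ASO 445236 (adjusted p = 0.005429) and 0.63 ± 0.19 under ASO 190401 (adjusted p = 0.04657). Between the oligos limma called 0 genes of the list.

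Of 31 probe pairs in 11 genes of that list, 6 pairs in 3 genes (Camk2d, Phka1 and Ryr1) were called in HSALR saline minus WT, where 8.31% of all pairs and 10.4% of all genes with pairs were. Against HSALR saline, 3 pairs of Camk2d and Phka1 were called under ASO 445236, where 2.17% of all pairs were. Under ASO 190401 4 pairs of Camk2d, Phka1 and Rtn4 were called, where 3.17% of all pairs were. Phka1 encodes the muscle regulatory subunit of phosphorylase kinase, which switches on glycogen breakdown. Its probe 3 read 6.93, 7.96, 8.33 and 7.69 under ASO 445236, 7.09, 7.69, 6.85 and 7.93 under ASO 190401, 5.29, 5.48, 5.91 and 5.80 in HSALR saline and 8.25, 7.87, 7.96 and 8.39 in WT. The HSALR saline arrays lay below all others, and 3 of the 4 were above background. Probe 3 fell in HSALR saline against WT by 2.50 (SE 0.26, adjusted p = 1.248e-06) and rose by 2.11 ± 0.26 under ASO 445236 (adjusted p = 2.302e-05) and 1.77 ± 0.26 under ASO 190401 (adjusted p = 0.0001656). Phka1 probe 1 averaged 10.91, 10.96, 10.74 and 10.83 in the order of groups given above, and the pair of probes 1 and 3 changed by 2.41 ± 0.22 in HSALR saline minus WT (adjusted p = 1.529e-07). Phka1 probe 2, annotated to the same transcript as probe 3, differed there by only -0.22 ± 0.10 (adjusted p = 0.1344), while probe 1 is annotated to another. Camk2d probe 3 differed by -0.19 ± 0.16 (adjusted p = 0.4048) where its probe 1 rose, with probe 3 above background on 1 of 4 HSALR saline and 3 of 4 WT arrays, and this pair changed by 2.20 ± 0.18 (adjusted p = 5.152e-08). Camk2d probe 2, annotated to the same transcript as probe 3, rose by 0.95 ± 0.19 (adjusted p = 0.001063), and was above background on 1 of 4 WT arrays.

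Of 22 splicing regulators 16 were measured, each by its brightest probe. In HSALR saline, against WT, 2 rose and 3 fell, where 13.1% of all probes rose and 12.7% fell, 25.9% in all. Their median was -0.13 against -0.02 over all probes. Celf2, a CUG-binding regulator of exon use, fell by 0.99 (SE 0.07, adjusted p = 3.524e-09), Hnrnph1, a heterogeneous nuclear ribonucleoprotein, fell by 1.23 (SE 0.14, adjusted p = 2.946e-06), and Rbfox2, which binds beside alternative exons, rose by 0.81 ± 0.19 (adjusted p = 0.003389). The dimmer Hnrnph1 probes fell less, at -0.87, -0.81, -0.79 and -0.50, all called. Relative to HSALR saline, 2 rose and 1 fell under ASO 445236, with Celf2 up by 1.03 ± 0.07 (adjusted p = 1.358e-08), and under ASO 190401 4 rose and 1 fell, with Celf2 up by 0.86 ± 0.07 (adjusted p = 1.475e-07). Against WT, 0 rose and 2 fell under ASO 445236, and 0 rose and 1 fell under ASO 190401. Between the oligos 0 rose and 1 fell. Of 22 probe pairs in 11 of these genes, 5 pairs of Hnrnpa1, Hnrnph1 and Rbfox1 were called in HSALR saline minus WT, where 8.31% of all pairs were. There Rbfox1 probe 2 fell by 1.08 (SE 0.17, adjusted p = 0.0001101) and Hnrnpa1 probe 2 by 1.12 (SE 0.20, adjusted p = 0.0003298). Hnrnpa1 probe 2 was above background on 0 of 4 HSALR saline arrays, and probe 1 of both genes was not called. Against HSALR saline, 0 pairs were called under ASO 445236, where 2.17% of all pairs were. Under ASO 190401 1 was called, where 3.17% of all pairs were.

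Relatives of the members, such as other PDZ and LIM proteins, gave 16 measured genes of 25, of which 2 rose and 6 fell in HSALR saline against WT, where 13.1% of all probes rose and 12.7% fell, with a median of -0.25 against -0.02 over all probes. Pdlim7, a relative of Ldb3 and Pdlim3, fell by 0.89 (SE 0.15, adjusted p = 0.0002266), while Mybpc1, slow myosin binding protein C, rose by 0.88 ± 0.09 (adjusted p = 4.751e-07). Relative to HSALR saline, 1 rose and 1 fell under ASO 445236, and Mybpc1 fell by 0.56 (SE 0.09, adjusted p = 0.000194). Under ASO 190401 3 rose and 0 fell, with Pdlim7 up by 0.86 ± 0.15 (adjusted p = 0.0007402). Against WT, 2 rose and 2 fell under ASO 445236 and 1 rose and 3 fell under ASO 190401, and between the oligos 0 rose and 2 fell.

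Binding partners and neighbours of the members gave 26 measured genes of 29, of which 9 rose and 4 fell in HSALR saline against WT, where 13.1% of all probes rose and 12.7% fell, 25.9% in all, with a median of 0.16 against -0.02 over all probes. Actn2, the actinin that Ldb3 and Pdlim3 bind, rose by 0.88 ± 0.11 (adjusted p = 8.859e-06), and Fhl1, a LIM protein of the sarcomere, rose by 0.93 ± 0.08 (adjusted p = 1.711e-07). Relative to HSALR saline, 2 rose and 5 fell under ASO 445236, with Actn2 lower at -0.56 ± 0.11 (adjusted p = 0.001804) and Fhl1 at -1.21 ± 0.08 (adjusted p = 1.857e-08). Under ASO 190401 2 rose and 3 fell, with Actn2 at -0.75 ± 0.11 (adjusted p = 0.0001514) and Fhl1 at -0.73 ± 0.08 (adjusted p = 1.22e-05). Against WT, 6 rose and 5 fell under ASO 445236 and 7 rose and 3 fell under ASO 190401, and between the oligos 1 rose and 2 fell.

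Markers of other cells moved between the groups. In bulk muscle, fewer cells of a type and less RNA per cell cannot be told apart. All 8 muscle fibre markers were measured, with a summed level on the linear scale of 202400 to 212200 under ASO 445236, 197600 to 217500 under ASO 190401, 209000 to 223000 in HSALR saline and 209100 to 219300 in WT. The sum of 5 of 8 myeloid markers was 1657 to 2646 under ASO 445236, 709.7 to 1054 under ASO 190401, 356.2 to 901.1 in HSALR saline and 695.3 to 1569 in WT, with the defining marker Ptprc below the detection filter. The sum of all 5 fibroblast markers was 14670 to 17670, 12640 to 14210, 11920 to 13150 and 18760 to 20550 in the same order of groups. For 2 of 5 adipocyte markers, with Plin1 and Fabp4 below the filter, it was 953.2 to 3203, 423.2 to 1072, 355.4 to 948.3 and 829.5 to 2737, and for 4 of 5 endothelial markers, with Kdr below the filter, 1031 to 2109, 1135 to 1909, 1815 to 2219 and 1544 to 2270. The satellite cell markers Pax7 and Myf5 were below the filter. The part of these cells in the results above was not tested.

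The genes with group means nearest to those of 3 member probes, set relative to WT over the 4 groups, were found among all kept probes by the root mean square difference. For Bin1 probe 3 they were Sprr2k, Col24a1 and Olfr985 (0.13 to 0.22), with HSALR saline minus WT differences of 2.75, 2.52 and 2.96. For Nrap probe 2 they were Pkig, Kcp and Catsper2, at 0.96, 0.98 and 0.89. For Ldb3 probe 1 they were Rab34, Usp18 and Leprotl1, at between -1.04 and -0.97. With 4 group means a near match is easily found, and the probes share the arrays.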

How the data were processed

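The authors deposited a non-normalized table that holds an intensity and a detection p-value for each probe on each array, per the file headers. Many of its intensities lie below 0. They also deposited a processed matrix of linear intensity, whose array medians lie close to 26.5, and this served as an alternative. The tool affy appears in the submitters' processing notes without a version. In 2 columns, 60 cells held no number and were treated as missing, and 0 of them belonged to member probes.

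Intensities were corrected by normexp from the detection p-values (offset 16), quantile normalized and converted to log2, with limma 3.58.1 under R 4.3.3. GEO's platform annotation gave the gene names. A single fit with group means, leaving 12 residual degrees of freedom, was used for all 6 comparisons. Its moderated tests were two-sided, with the variance prior following intensity, and p-values were adjusted over the 12364 probes of each comparison. Differences between 2 probes of a gene within an array were tested likewise over 3877 pairs. The tests were also tried on simulated data, with means and spreads taken from these arrays, and the outcome is not given here.

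Members and lists were chosen with earlier results of these data known. Named are every kept member probe, every called member pair and, per list and comparison, up to 4 called genes with the smallest p. For 3 members the 3 genes of nearest group means are named. Alternatives were 2 other offsets, median scaling, the authors' values, 2 other detection filters, no intensity trend, only the groups compared, chip position, diffSplice and leaving out each array.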

Additional observations from a re-analysis of the deposited data

Results flagged for a closer look

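In HSALR saline, replicate 2 was the highest of its group on Ldb3 probe 1, at 11.72, with the other 3 arrays close together, and replicate 3 was the lowest on Vps39 probe 1, at 5.33. Both stood outside their group by Dixon's test, 2 of the 92 groups of 4 arrays checked, where chance gives about 1 in 20. Spag9 probe 5, left out of the comparisons by the detection filter, was above background on 1 array under ASO 445236 and 1 under ASO 190401 and on 0 of the 8 saline arrays. Its deposited intensity on the brighter of them was 33.4.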

How the results depend on the processing

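Nothing in the labels pairs arrays across groups, so no paired analysis was run. The labels give no replicate numbers, and those used here follow the order of the arrays within each group. Called member probes kept their call in 668 of 772 refits and called pairs in 212 of 244, and 0 reversed. diffSplice, not among these refits, called no Nrap or Capzb probe in any comparison. The calls lost when 1 array was left out are given in the report, and other losses in part only as totals. With the authors' values the calls of Ttn, Spag9 probe 3 and the pair of Nrap probes 2 and 3 in HSALR saline minus WT were lost. So were the pair of Nrap probes 1 and 2 in ASO 190401 minus HSALR saline and Ldb3 probe 1 in ASO 190401 minus WT. Bin1 probe 1 in ASO 445236 minus WT was also lost with no intensity trend and with only the groups compared. Among results not called, 37 probe and 26 pair checks passed. Median scaling moved the median difference of all probes to 0.16 under ASO 445236 and 0.17 under ASO 190401 against HSALR saline, and to 0.14 and 0.17 against WT, with 1982 higher and 338 lower probes, 2556 and 401, 1812 and 233, and 2207 and 364, in place of 753 and 743, 882 and 834, 652 and 550, and 534 and 595. Called member probes then numbered 11 for ASO 190401 minus HSALR saline (6 higher and 5 lower, in place of 1 and 5), 7 for ASO 445236 minus WT (7 and 0, in place of 4 and 0) and 8 for ASO 190401 minus WT (8 and 0, in place of 1 and 1), and for ASO 445236 minus HSALR saline 5 were higher and 5 lower, in place of 2 and 5, with 1 called pair for ASO 190401 minus WT. With probes detected on all 16 arrays, which leaves out Bin1 probe 3, called pairs numbered 2 in HSALR saline minus WT and 0 under either oligo against HSALR saline. With only the groups compared, ASO 190401 minus HSALR saline had 5 called pairs, ASO 445236 minus WT 2 called probes and ASO 190401 minus WT 1. ASO 445236 minus WT had 2 called probes with no filter, 1 with no trend, 0 pairs with no trend and 0 by diffSplice. ASO 190401 minus WT had 1 called probe with the authors' values, 1 with no trend and 4 with chip position. Leaving out 1 array gave 8 to 12 called probes and 3 to 5 pairs in HSALR saline minus WT, 6 to 7 and 2 to 4 (4 without WT replicate 1) in ASO 445236 minus HSALR saline, 5 to 8 and 2 to 4 in ASO 190401 minus HSALR saline, 0 to 5 and 0 to 1 in ASO 445236 minus WT, 1 to 3 and 0 to 1 in ASO 190401 minus WT, and 0 and 0 between the oligos. Signals near background limit Bin1 probe 3, Nfix probe 2, both Vps39 probes and Spag9 probe 4, which was above background on 13 of 16 arrays. Spag9 probe 3, above background on all 16, went down to 5.37 in WT. The probes of Ttn and Tnnt3 and Pdlim3 probe 1 were the brightest of the members, with group means from 14.31 to 15.10. The part of this signal strength in their differences was not tested.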
